A study of Mus musculus with 8 samples.

Results

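Nucleosome positions of H2A.L.2-less round spermatids were compared with those of H2A.L.2-less spermatocytes, the germ cells from which they derive. The members are all positions that the authors called on chromosomes 1 to 19 in these 2 of the 8 deposited lists, 4700815 in round spermatids and 4764344 in spermatocytes, or 9465159 of the 36905351 autosomal positions of the series. H2A.L.2-less mice lack H2A.L.2, a testis-specific histone variant, and WT mice carry it. Each library came from testis cells enriched for 1 stage, cut with micrococcal nuclease (MNase), which digests DNA that no protein protects, and sequenced. The groups used here are H2A.L.2-less round spermatids, H2A.L.2-less spermatocytes, WT round spermatids and WT spermatocytes, with 1 library each. The lists of condensing spermatids of both genotypes served for lookups and to sort and describe windows along the chromosomes. The number of animals behind a library, their age and strain and how the allele was made are not given in the labels used here. The lists hold positions and no transcripts, so the labelled cell types were not checked against markers, and the H2A.L.2 locus was not examined because no gene annotation of the mm9 build was used.

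A nucleosome is a stretch of DNA wrapped around a core of histones, and neighbouring nucleosomes often lie at a regular distance, the repeat length. Spermatocytes are the cells in meiosis and round spermatids are the haploid cells that follow them, before the histones are exchanged for transition proteins and protamines in condensing spermatids. H2A.L.2 is known mainly from that later exchange, where it acts together with transition proteins. The comparison therefore asks how nucleosome positions differ between the stages before the exchange when H2A.L.2 is missing.

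Each position has a summit, a summit value, which is the height of the coverage there, and a fuzziness score, the caller's measure of how widely fragments scatter around it. The summit values have no scale in common between libraries, so heights are given as percentile ranks within a list. The read number of a single library is unknown, and over the series it ran between 207 M and 753 M reads per sample. The first percentile of summit values was 168 in H2A.L.2-less round spermatids and 172 in H2A.L.2-less spermatocytes, against 176 in WT round spermatids and 172 in WT spermatocytes. The median values were 204, 224, 240 and 232 in the same order. Single values reached down to 68 in H2A.L.2-less round spermatids and 72 in H2A.L.2-less spermatocytes, but few positions are below the first percentile, and the part of depth in the differences given here was not tested. With 1 library per group there is no test and no replicate error. Intervals are 95% Wilson intervals, cover counting error only and reach at most 0.0449 percentage points to either side. Ranges over the 19 autosomes show how a value varied from chromosome to chromosome, not between animals.

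A summit was called kept when the other stage had a summit within 40 bp, lost when a spermatocyte summit had none, and new when a round spermatid summit had none. Fewer than 1 in 2 summits were kept at this step. Kept summits numbered 2097286, which is 44.6% of the round spermatid list and 44.0% of the spermatocyte list. New summits were 2603529, or 55.4% of the round spermatid list, and lost summits were 2667058, or 56.0% of the spermatocyte list. Because no summits of a list are closer than 100 bp, the pairing within 40 bp is one to one. When 1 list was displaced by 5000 bp, 18.7% of round spermatid summits and 18.5% of spermatocyte summits still found a partner, so the kept share was 2.38 times this background in both directions. Single autosomes kept between 42.6% of spermatocyte summits, on chromosome 11, and 45.6%, on chromosome 14. In WT cells the same step kept 53.9% of round spermatid and 55.4% of spermatocyte summits, 2.47 times the displaced share in both directions, and 46.1% of WT round spermatid summits were new and 44.6% of WT spermatocyte summits lost. The longer WT lists have the higher background, and whether the step differs between the genotypes was not tested.

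Just inside the matching limit, 308719 spermatocyte summits had their round spermatid partner 31 to 40 bp away, with a median rank of 56.2 and a median fuzziness of 53.4. Just outside it, 263450 had one at 41 to 50 bp, with a median rank of 56.2 and a median fuzziness of 53.9. The limit thus cuts through a continuous range of distances.

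High summits were kept far more often than low ones. Among round spermatid summits, 33.1% were kept in the lowest decile of summit value, 41.7% in the fifth decile and 65.3% in the highest. Among spermatocyte summits the shares were 32.5%, 40.6% and 64.7%. The displaced share stayed between 17.9% and 19.5% in the 10 deciles of both lists and so hardly varied with height. Kept summits had a median rank of 59.5 in the round spermatid list, against 45.7 for new ones. In the spermatocyte list kept summits had a median rank of 58.7, against 44.8 for lost ones, and in each list the kept median was the higher on 19 of 19 autosomes. Of the new summits 13.4% were in the lowest decile of the round spermatid list and 6.61% in the highest, against 8.26% and 15.4% of the kept ones. Tied values make the deciles unequal, with 522648 of the 4700815 summits in the lowest and 495700 in the highest. In WT cells 75.5% of round spermatid and 76.5% of spermatocyte summits in the highest decile were kept.

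**Figure D1:**
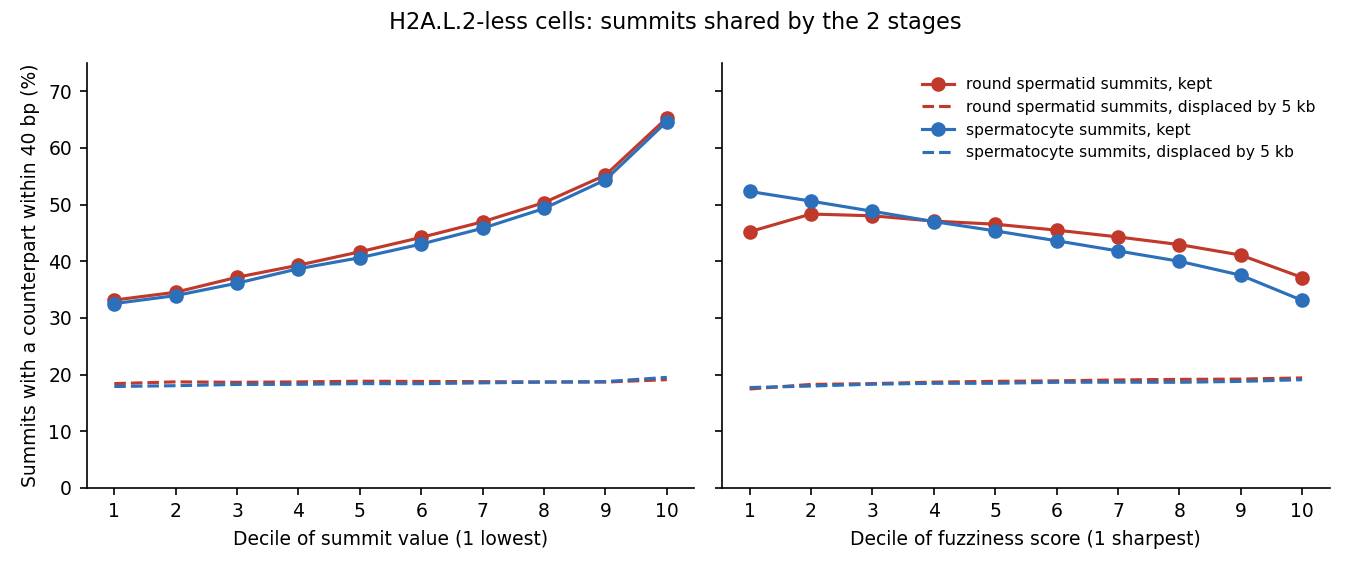
Share of H2A.L.2-less summits with a counterpart in the other stage within 40 bp (y axis, percent) by decile of summit value (left) and of fuzziness (right), for round spermatid summits (red) and spermatocyte summits (blue). Dashed lines give the share after one list was displaced by 5 kb. The kept share runs from about 33% to 65% with height, while the dashed lines stay below 20%.

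Kept summits were also sharper, at all heights in spermatocytes and at the greater heights in round spermatids. The median fuzziness was 52.5 for kept and 53.0 for new summits of round spermatids, and 52.5 for kept and 53.6 for lost summits of spermatocytes. The difference, kept minus lost, was -1.05 in spermatocytes and lay between -1.10 and -0.986 on single autosomes. Kept minus new was -0.520 in round spermatids, between -0.620 and -0.447. With matching within 73 bp the difference was -0.356 in spermatocytes and turned to 0.266 in round spermatids, so its direction in round spermatids depends on the matching distance. High summits are less fuzzy in both lists, so the comparison was repeated within deciles of height. In spermatocytes the kept summits were sharper in each of the 10 deciles, with a difference of -0.440 in the lowest and -1.13 in the highest. In round spermatids the sign depended on height, with 0.237 in the lowest decile, 0.251 in the next and -0.751 in the highest, and the mean over deciles was -0.0620. By fuzziness itself, 52.3% of the sharpest and 33.1% of the fuzziest decile of spermatocyte summits were kept. Round spermatid summits ran only from 45.2% in the sharpest decile through 48.3% in the next to 37.1% in the fuzziest.

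Kept summits lie within 40 bp of their partners by the matching rule, and the order of heights was only weakly shared. Offsets of pairs found after displacement were not computed, so the offsets given here have no background beside them. The round spermatid summit was at the same coordinate as its spermatocyte partner in 15.9% of pairs and within 10 bp in 45.4%, and the median offset was 20 bp, on lists whose summits are on a 10 bp grid in 95.5% (round spermatids) and 96.4% (spermatocytes) of cases. Offsets to higher and to lower coordinates made up 41.9% and 42.2% of pairs. Across kept pairs the ranks of summit value in the 2 lists correlated weakly, at r = 0.212 over 2097286 pairs and between 0.190 and 0.239 on single autosomes, against 0.317 in WT pairs. Pairs share their libraries, depth and base composition, so this is a description. Of the kept summits in the top decile of spermatocytes 32.7% were also in the top decile of round spermatids, against 15.4% of all kept summits. Below the round spermatid median were 24.9% of them, and the share of all kept summits below it was not computed. Relative to the list median, 6.84% of kept summits were over 1.5-fold higher in round spermatids and 6.87% over 1.5-fold lower. Fuzziness of kept pairs was nearly the same at both stages, with a median difference of -0.0680 and lower fuzziness in round spermatids for 50.6% of pairs.

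Lost and new summits were of 2 kinds, those overlapped by a position of the other stage that lay further off than 40 bp, and those overlapped by none. Positions are 140 bp wide, so summits less than 140 bp apart overlap. Of the lost spermatocyte summits, 23.9% had the nearest round spermatid summit at 41 to 70 bp and 21.05% between there and 140 bp, while 32.5% had it from 140 bp to just under 300 bp and 22.6% at 300 bp or more. Of the new round spermatid summits, 24.2% and 20.6% were overlapped at those distances by a spermatocyte position, and 29.7% and 25.5% were not. As shares of the whole spermatocyte list, 13.4% of summits were in the first of these classes and 11.8% in the next, against 11.9% and 17.6% after displacement. A summit counts only at its nearest partner, and 44.0% had one within 40 bp, against 18.5% after displacement. That leaves fewer summits for the later classes, so these shares cannot show whether lost summits had such neighbours more often than the background. In the round spermatid list the shares were 13.4% and 11.4%, against 12.0% and 17.1% after displacement. In WT cells the shares of lost summits were 35.1% and 25.03% for the overlapped kinds and 24.1% and 15.7% for the others. The kinds differed in shape. Lost summits with a neighbour between 70 and 140 bp had a median fuzziness of 55.1 and a median rank of 44.8, and those with none within 300 bp a fuzziness of 51.7 and a rank of 35.2. Isolated lost summits were therefore low but sharp, and overlapped ones fuzzier. New summits gave the same order, with a fuzziness of 54.6 between 70 and 140 bp and 50.8 at 300 bp or more.

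Looking the 3 classes up in lists that did not define them separated new from lost summits. In WT round spermatids, 36.2% of the new and 65.6% of the kept round spermatid summits had a counterpart within 40 bp, and so had 46.5% of the lost spermatocyte summits. In WT spermatocytes the shares were 33.2%, 64.4% and 48.4%. Relative to displaced summits, the shares of new, kept and lost summits were 1.78, 3.04 and 2.07 times in WT round spermatids. In WT spermatocytes they were 1.68, 3.07 and 2.22 times. New summits were thus the class least often seen in WT cells, and 48.8% of them were in neither WT list, against 17.3% of kept round spermatid summits and 32.9% of lost spermatocyte summits. With the summits displaced, 69.9%, 68.2% and 66.9% of the 3 classes were in neither. Lost summits were in both WT lists in 27.7% of cases and in WT round spermatids alone in 18.7%, against 11.2% and 11.3% after displacement. Thus 46.5% of the positions lost in H2A.L.2-less round spermatids were called in WT round spermatids. After displacement this share was 22.4%, and among all H2A.L.2-less spermatocyte summits it was 54.8%. New summits were in both WT lists in 18.2% and in WT round spermatids alone in 18.04%, against 10.1% and 10.3% after displacement.

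The small structures of condensing spermatids, protected fragments shorter than nucleosomal DNA, gave a different order of shares, with lost summits the highest. Relative to displaced shares, kept and lost summits were close and new summits the lowest. Of the new summits 18.02% were within 40 bp of an H2A.L.2-less small structure, 1.15 times the displaced share, and of the lost summits 27.8%, 1.48 times. Kept round spermatid summits were at 24.9%, 1.47 times. On WT small structures the ratios were 1.20 for new, 1.61 for kept and 1.57 for lost summits. Set against condensing nucleosomes of H2A.L.2-less cells, new summits were at 21.8%, kept at 29.6% and lost at 23.1%, or 1.47, 1.89 and 1.43 times displaced. Lost and new summits thus stood close together on condensing nucleosomes and apart on small structures, in lists of both genotypes.

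**Figure D2:**
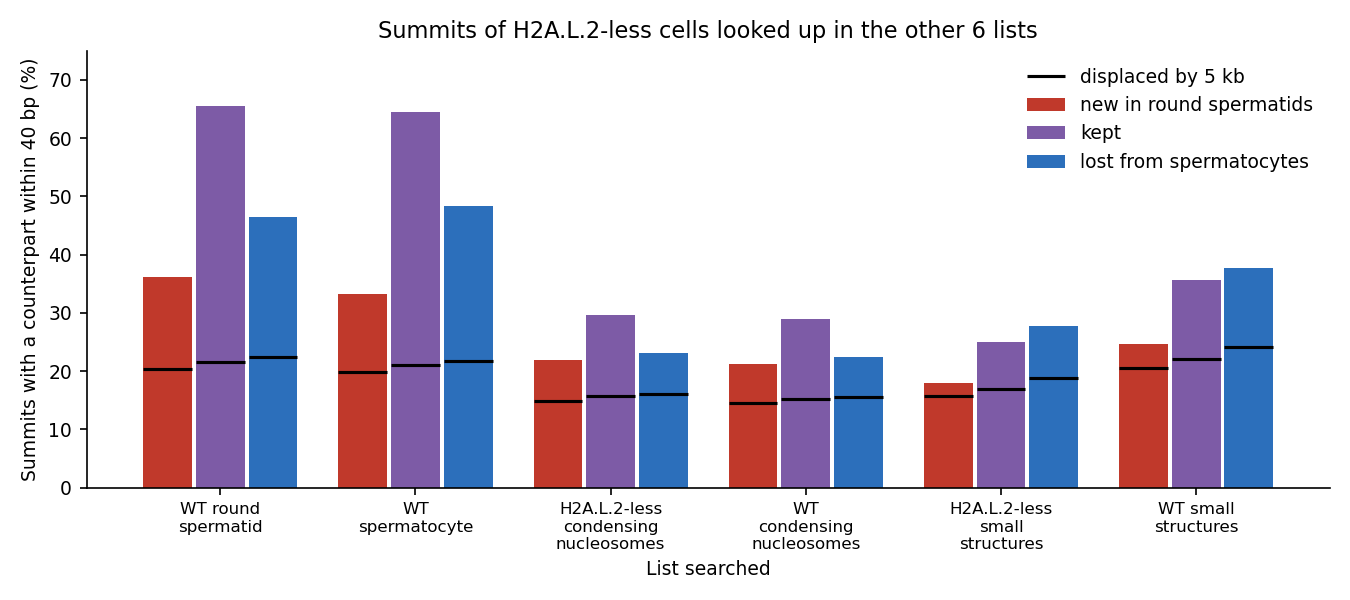
Share of new (red), kept (purple, round spermatid coordinates) and lost (blue) summits of H2A.L.2-less cells that have a counterpart within 40 bp (y axis, percent) in each of the 6 other lists (x axis). Black lines mark the share after displacement by 5 kb. Kept summits stand at 65.6% and 64.4% in the WT lists of the earlier stages, new summits at 36.2% and 33.2%, and on small structures new summits are the lowest.

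With the 4 lists of the earlier stages set to the same length, the H2A.L.2-less round spermatid list stood apart from the others, a comparison chosen after the data were seen. The 4700815 highest positions of each were used. H2A.L.2-less round spermatid summits found a partner in 44.2% of cases in H2A.L.2-less spermatocytes, 45.2% in WT round spermatids and 44.0% in WT spermatocytes. The other 3 lists matched each other at 50.6% (H2A.L.2-less spermatocytes with WT round spermatids), 52.7% (WT round spermatids with WT spermatocytes) and 52.8% (H2A.L.2-less with WT spermatocytes). H2A.L.2-less spermatocytes therefore shared more positions with WT round spermatids than with H2A.L.2-less round spermatids. At equal length 53.2% of new and 37.1% of lost summits were in neither WT list, against 72.6% and 69.8% after displacement. Since 1 library represents each stage and genotype, a difference of this library and one of H2A.L.2-less round spermatids cannot be told apart.

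Spacing showed nearly the same repeat at both stages, with sharper peaks in round spermatids. The repeat length, the slope of the first 4 peaks of the distance curve, was 187 bp in round spermatids and 188 bp in spermatocytes. The difference of -0.918 bp is well below the 10 bp grid of the lists. It lay between -1.84 and 0.00261 bp on single autosomes, with the longer repeat in round spermatids on only 1 of 19. In WT cells the repeat lengths were 187.4 bp in round spermatids and 188.2 bp in spermatocytes. The regularity, the height of the second peak over the trough before it, was 2.17 in round spermatids and 1.89 in spermatocytes, higher in round spermatids on 19 of 19 autosomes. In WT cells the ratios were 1.83 in round spermatids and 1.69 in spermatocytes, in longer lists. At equal list length the ratios of round spermatids and spermatocytes were 1.94 and 1.75 in WT and 2.17 and 1.91 in H2A.L.2-less cells. Summits only 100 bp apart, which overlap and so are alternative positions, were at 0.421 of the background density in round spermatids and 0.563 in spermatocytes. Gaps of 100 bp to just under 140 bp made up 6.81% of neighbour distances in round spermatids and 8.83% in spermatocytes, against 10.4% and 10.2% in the WT lists. Gaps of 340 to 410 bp, about 2 repeats, made up 11.3% in round spermatids and 10.4% in spermatocytes, and the median of gaps up to 1000 bp was 290 bp in round spermatids and 260 bp in spermatocytes. With as many positions as the round spermatid list, the spermatocyte median was also 260 bp.

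The periodicity was strongest among kept summits. Distances between them gave a regularity of 3.58 in round spermatids and 3.33 in spermatocytes, against 1.73 among new and 1.504 among lost summits, with repeat lengths between 187 and 189 bp in the 4 classes. Kept summits are the higher ones, and this was not corrected for height. Around kept spermatocyte summits the round spermatid summits recurred with a regularity of 2.42. Around lost spermatocyte summits, where by definition none is within 40 bp, they still recurred with a regularity of 1.33, with peaks at 185, 369 and 558 bp. At 100 bp the density of round spermatid summits was 0.378 of background around kept and 1.05 around lost summits, a contrast that the matching rule favours, because a partner within 40 bp and the minimum distance of 100 bp leave less room there. Neighbouring lost summits were only slightly clustered. A spermatocyte summit up to 300 bp after a lost one was itself lost in 57.2% of cases, and after a kept one in 53.1%.

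**Figure D3:**
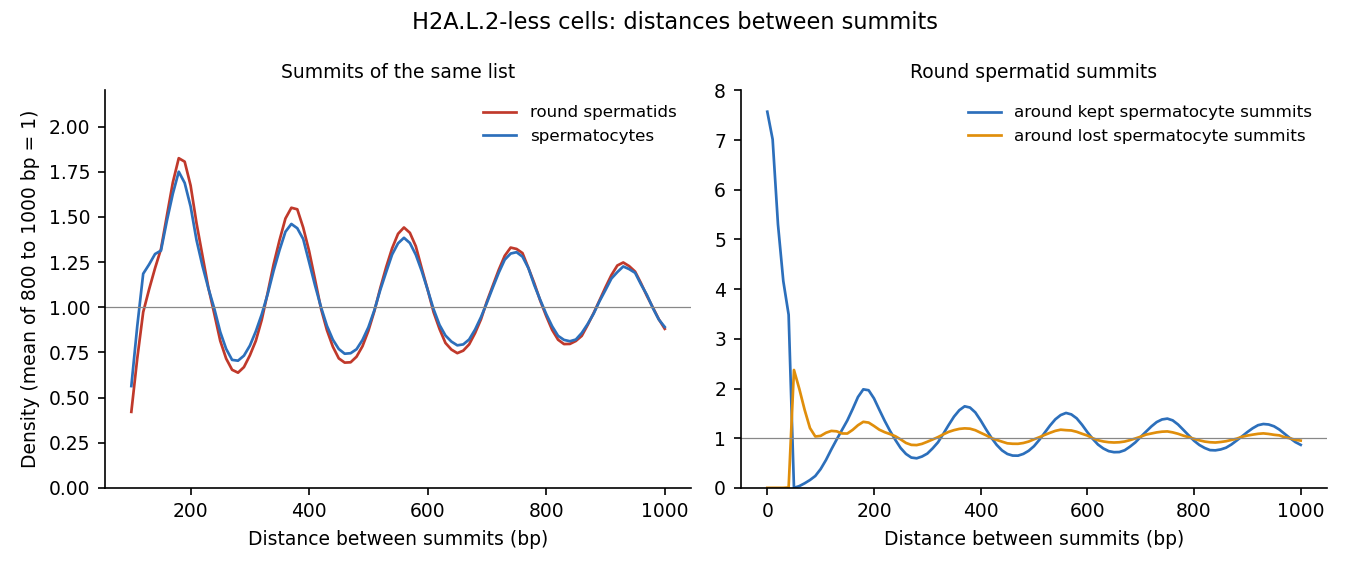
Density of summits by distance (x axis, bp), relative to the mean from 800 to 1000 bp (y axis). Left, within the H2A.L.2-less round spermatid list (red) and the spermatocyte list (blue). Right, round spermatid summits around kept (blue) and lost (orange) spermatocyte summits. Peaks recur near 187 bp and are higher in round spermatids. The peak at 0 bp on the right, and its absence around lost summits, follow from the matching rule.

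Runs of evenly spaced nucleosomes were somewhat rarer in round spermatids. An array was a run of at least 4 summits whose neighbours are 160 to 220 bp apart. Round spermatids had 59159 arrays with 5.64% of their summits, and spermatocytes 65770 arrays with 6.27%. The share was lower in round spermatids on 17 of 19 autosomes, with differences between -1.47 and 0.116 percentage points. In WT cells arrays held 8.33% of round spermatid and 6.74% of spermatocyte summits, in longer lists. At equal list length the shares were 7.18% and 5.93% in WT and 5.64% and 6.15% in H2A.L.2-less cells. A single missing call ends an array. Where gaps of 340 to 410 bp were also allowed, a setting chosen after the data were seen, arrays held 14.9% of summits at both stages, with a difference of 0.0298 points. Arrays of 10 or more summits numbered 117 in round spermatids and 207 in spermatocytes.

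Summits in arrays were kept more often than single ones. In round spermatids 41.2% of summits outside any run were kept, 48.8% in runs of 2 to 3, 55.0% in arrays of 4 to 5, 59.8% in arrays of 6 to 9 and 67.6% in those of 10 or more. The displaced share also grew, to 26.99% for the longest, and relative to it the kept share was 2.25 times for single summits and 2.50 times for the longest arrays, with the highest ratio, 2.67, in arrays of 4 to 5. In spermatocytes the kept share ran from 41.4% to 58.4%, against 18.1% and 22.5% after displacement, or 2.29 and 2.59 times. Height rose with array size too, and the comparison was not corrected for it. The median rank ran from 45.7 for single summits to 75.3 in the longest arrays of round spermatids, and from 44.8 to 65.9 in spermatocytes. For whole arrays no displaced share was computed. In spermatocyte arrays of 4 to 5 summits 51.5% of single members were kept. The shares of whole arrays thus cannot show whether arrays were kept less often than their members imply. Of the spermatocyte arrays 8.32% had every member kept, 6.90% had none kept, and 15.3% contained a kept summit that was also in a round spermatid array. Every member was kept inside 1 and the same round spermatid array in 2697 arrays, or 4.10%.

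The longest arrays, each chosen in its own list, are given with all that tie in length. The longest of round spermatids had 22 summits on chromosome 5 from 95962911 to 95966981 (mm9), spaced 194 ± 15.3 bp (SD over its gaps). Of its summits 17 were kept, and the same stretch held 22 round spermatid, 23 spermatocyte, 23 WT round spermatid and 19 WT spermatocyte summits. The next had 19 summits on chromosome 13 from 13018551 to 13022051, with 17 kept and a median summit value of 560 against 204 for the list. Then 3 arrays of 15 summits tied. The one on chromosome 4 from 73297061 to 73299761 had 6 kept, that on chromosome 5 from 95392111 to 95394781 had 14, and that on chromosome 13 from 12955381 to 12958081 had 10. The spermatocyte list held 9, 14 and 11 summits in the same stretches. The longest spermatocyte array had 16 summits on chromosome 5 from 35637761 to 35640671, of which 9 were kept among 12 round spermatid summits. The other two, with 15 summits each, were on chromosome 3 from 101238951 to 101241571, with 7 kept and only 7 round spermatid summits in the stretch against 14 in WT round spermatids, and on chromosome 8 from 120646791 to 120649476, with 10 kept.

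Along the chromosomes, summits were spread more evenly in round spermatids. In 23948 windows of 100 kb, which held a mean of at least 50 summits over the 2 lists, the median was 196 summits in round spermatids and 196 in spermatocytes. The range from the 5th to the 95th percentile was 136 to 255 in round spermatids and 109 to 304 in spermatocytes. The coefficient of variation was 0.194 in round spermatids and 0.308 in spermatocytes, against 0.356 and 0.352 in the WT lists. Window numbers of the 2 stages correlated at r = 0.842 (rho = 0.852) across windows, between 0.761 and 0.912 on single autosomes, and at r = 0.976 in WT. Windows are not independent replicates, and the correlations describe these libraries.

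**Figure D4:**
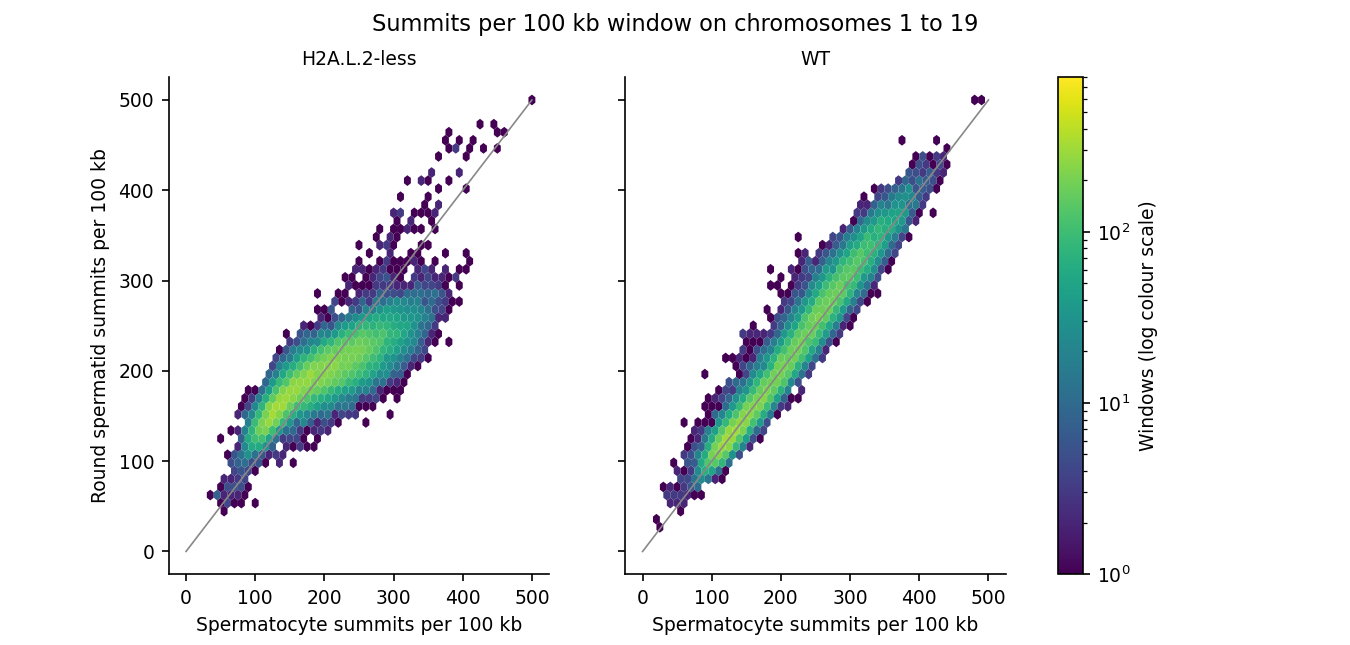
Summits per 100 kb window in round spermatids (y axis) and spermatocytes (x axis) in H2A.L.2-less cells (left) and WT cells (right). Colour gives the number of windows on a log scale and the grey line is equality. The H2A.L.2-less cloud is tilted, with sparse windows above and dense windows below the line, while the WT cloud follows it.

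The log2 ratio of the number of summits, round spermatids over spermatocytes, each over its list total and with 1 added, had an SD of 0.26 over windows and lay between -0.38 and 0.46 at the 5th and 95th percentiles, against -0.19 and 0.21 in WT. In H2A.L.2-less cells 811 windows (3.39%) were above 0.5 and 291 (1.22%) below -0.5. In WT these were 86 (0.359%) and 1 (0.00418%). The ratio of neighbouring windows correlated at r = 0.752 and that of windows 10 apart, 1 Mb, at 0.479, so differences extended over neighbouring windows. Past the thresholds, however, most runs were 1 window long, 442 of 572 above 0.5 and 193 of 233 below -0.5. The longest stretch above it was on chromosome 3 from 3400001 to 5100000, with 2659 summits in round spermatids and 1615 in spermatocytes and with a median log2 ratio of 0.72 (0.44 in WT). The longest below -0.5 was on chromosome 5 from 113100001 to 113700000, with 1077 and 1674 summits and a median of -0.58 (0.04 in WT).

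The most extreme ratios were taken from the 11442 windows with a mean of at least 200 summits. The lowest was on chromosome 4 from 151700001 to 151800000, with 152 summits in round spermatids and 291 in spermatocytes (log2 ratio -0.91). WT cells had 357 and 376 summits there, and the small structures of H2A.L.2-less condensing spermatids numbered 504. On chromosome 5 from 113500001 to 113600000 there were 144 and 257 summits (-0.81; 348 and 328 in WT), and on chromosome 15 from 83700001 to 83800000 there were 173 and 306 (-0.80; 358 and 345 in WT). In these 3 windows between 25.1% and 28.4% of spermatocyte summits were kept, against 11.3% to 16.2% after displacement, and between 47.9% and 50.3% of round spermatid summits. The highest were on chromosome 7 from 16100001 to 16200000, with 284 and 187 summits (0.62; 223 and 185 in WT), on chromosome 7 from 23200001 to 23300000, with 255 and 171 (0.59; 215 and 174 in WT), and on chromosome 3 from 15300001 to 15400000, with 243 and 163 (0.59; 155 and 143 in WT). Between 54.4% and 65.6% of their spermatocyte summits were kept, against 22.8% to 26.7% after displacement, and between 36.5% and 44.03% of their round spermatid summits. The kept shares of the 2 lists run in opposite directions because the windows were chosen by the ratio of their numbers. Genes were not placed in these windows, since the gene table at hand is of another build.

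The direction of the difference followed the density of summits in libraries that the ratio does not use. When windows were sorted by their number of WT spermatocyte summits, the sparsest of 5 equal groups had a median log2 ratio of 0.33, with 151 summits in round spermatids and 121 in spermatocytes per window. The densest group had a median of -0.27, with 230.5 and 281 summits. Of the windows 1.38% were below 0 in the sparsest, 37.0% in the middle and 96.9% in the densest group. In WT the medians were 0.02 in the sparsest and -0.01 in the densest group. Sorting by small structures gave nearly the same picture, with medians of 0.29 in the group with the fewest H2A.L.2-less small structures and -0.28 in the group with the most. Across windows the ratio correlated with the number of WT spermatocyte summits at rho = -0.867, with H2A.L.2-less small structures at -0.834 and with H2A.L.2-less condensing nucleosomes at -0.694. With the WT ratio of the same step it correlated at 0.0146. These correlations over 23948 windows, which share depth and base composition, are descriptions. The H2A.L.2-less spermatocyte medians, 121 and 281, rose with the WT number themselves. The sorting therefore restates the more even spread in round spermatids and is not separate evidence.

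Kept shares, arrays and regularity varied along the same axis. In the sparsest group 48.5% of spermatocyte summits were kept, 3.54 times the displaced share, and in the densest 41.03%, 1.95 times. Of round spermatid summits 38.8% were kept in the sparsest and 50.1% in the densest group. Relative to the displaced shares, however, these were 3.54 and 1.95 times, so the ratio was lower in the densest group in both lists. Arrays held 3.596% of round spermatid and 2.49% of spermatocyte summits in the sparsest group, and 7.97% and 10.6% in the densest, so the order of the stages was opposite at the 2 ends. Regularity was higher in round spermatids in all 5 groups, at 2.15 against 1.75 in the sparsest and 2.21 against 1.98 in the densest. The median fuzziness of a window was 52.0 in round spermatids and 52.1 in spermatocytes in the sparsest group, and 53.2 and 53.9 in the densest.

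**Figure D5:**
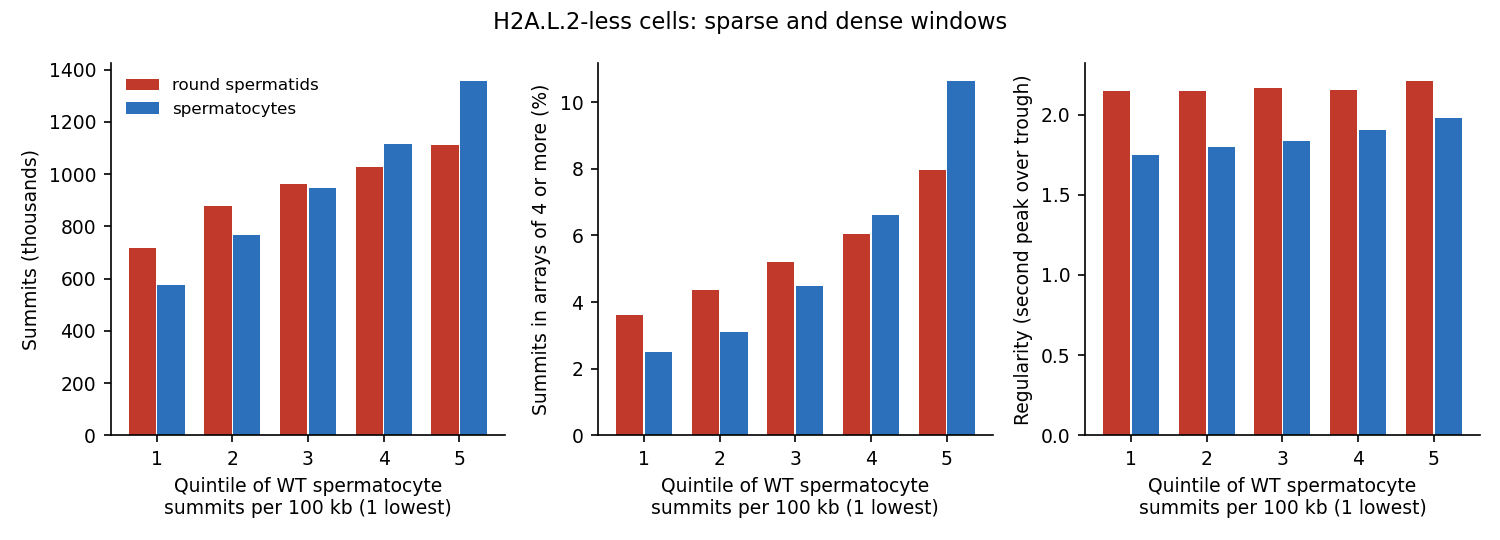
H2A.L.2-less round spermatids (red) and spermatocytes (blue) in 5 equal groups of 100 kb windows sorted by the number of WT spermatocyte summits (x axis, 1 sparsest). The panels give the number of summits, the share of summits in arrays of 4 or more, and the regularity of the distance curve. Round spermatids have more summits and arrays in sparse windows and fewer in dense ones, with the higher regularity in all 5 groups.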

How the data were processed

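Per the labels and the series description, testis cells enriched by stage were digested with MNase and the particles fractionated on a sucrose gradient, and the reads of 3 sequencing runs per library were joined after mapping. Per the submitters' processing notes, Bowtie2 2.2.9, deepTools 2.2.4 and mm9 were used. How positions were called, and whether duplicates were removed, is not given in the sources used here. The authors deposited, per the file headers, the start, end and summit of each position in bp, a summit value, which is a coverage signal in whole multiples of 4 with no visible normalization, and a fuzziness score of the caller.

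From these, summits on chromosomes 1 to 19 were matched within 40 bp, and the background was the matched share after a displacement of 5000 bp. Distance curves counted pairs in 10 bp bins over their mean at 800 to 1000 bp. Regularity was the highest value at 330 to 450 bp over the lowest at 230 to 330 bp after smoothing over 5 bins. The windows named have the 3 highest and the 3 lowest log2 ratios, at least 1 Mb apart, and the arrays named are the 3 longest of each list with any that tie. The members, comparisons and lists were chosen with earlier results of these data known. Alternatives were matching within 20 or 73 bp, other links, windows and subsets of positions, with ties drawn from a fixed seed. The code was tested on simulated data. Python 3.11.15, numpy 2.4.6, pandas 2.3.3 and matplotlib 3.10.9 were used. No sequence is shown, since no genome of the mm9 build was used here.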

Additional observations from a re-analysis of the deposited data

Results flagged for a closer look

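Of 10 measures compared between the stages over the full lists, 8 differed in opposite directions in H2A.L.2-less and WT cells. With 1 library per stage and genotype, the difference was not tested. Summit values have no scale in common between libraries, and without them it was 7 of 9. Differences are round spermatids minus spermatocytes. The number of autosomal positions differed by -63529 in H2A.L.2-less cells and by 145574 in WT cells. The median distance between neighbours differed by 30 bp (-10 bp in WT), the share of gaps of 100 bp to just under 140 bp by -2.02 percentage points (0.184 in WT), that of 160 to 220 bp by -0.570 points (1.80 in WT), and that of 340 to 410 bp by 0.918 points (-0.111 in WT). At equal list length, WT gaps of 100 bp to just under 140 bp were 9.17% in round spermatids and 9.34% in spermatocytes. Those of 340 to 410 bp were 10.21% and 10.20%, so these classes then had the same direction in both genotypes. The median distance, gaps of 160 to 220 bp and arrays stayed opposite. The number of positions is the list length itself, and the measures are not independent. The share of summits in arrays differed by -0.630 points (1.59 in WT) and the coefficient of variation of the number of summits per 100 kb by -0.114 (0.00416 in WT). Regularity, at 0.276 and 0.137, and median fuzziness, at -0.400 and -0.100, had the same direction in both genotypes. The median summit value differed by -20 (8 in WT), which cannot be read as a difference in coverage between libraries.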

How the results depend on the processing

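No paired analysis was possible because each group has 1 library. Over 11 results and 45 alternatives, 20 values moved by less than the counting interval or the SD over autosomes, 23 moved by more and 2 changed sign. The kept share of spermatocyte summits was 29.8% within 20 bp, 57.4% within 73 bp, 44.2% with equal numbers, 33.6% for the upper part of each list, from its median height up, and 43.96% without the highest 0.1% of positions. The new share of round spermatid summits was 69.8%, 41.97%, 55.8%, 65.9% and 55.4% in the same order. Relative to displaced lists the kept share was 2.93 times within 20 bp, 1.89 times within 73 bp and 3.41 times in the upper part. The rank difference of kept and lost spermatocyte summits was 16.4 within 20 bp, 17.6 within 73 bp and 16.6 with equal numbers, and that of kept and new round spermatid summits 18.8 within 73 bp. The fuzziness difference in spermatocytes was -1.21 within 20 bp, -0.356 within 73 bp and -0.634 within height deciles. In round spermatids it was -0.746 within 20 bp and -0.0620 within height deciles, and it turned to 0.266 within 73 bp, where the cause was not tested. The difference in regularity was 0.356 in the upper part. The difference in arrays was -1.05 points with links of 150 to 230 bp and turned to 0.0298 where 1 missing summit was allowed, a setting that joins runs by construction. The density correlation was 0.887 in windows of 1 Mb and 0.737 in the upper part. The coefficient of variation of the density stayed lower in round spermatids in all 5 alternatives, by -0.115 to -0.105. The unknown depth of each library limits every count of positions, and windows, summits and autosomes do not replace replicates.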

Other observations

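Against the more even profile of H2A.L.2-less round spermatids, a small set of windows, chosen after its values were seen, was very dense. In 84 windows on 12 autosomes the round spermatid list held more than 320 summits per 100 kb, with 25 of them on chromosome 5 and 17 on chromosome 4. Their medians were 373.5 summits in round spermatids and 340 in spermatocytes, and 334 and 329 in the WT lists. The log2 ratio was above 0 in 78 of the 84, which the choice by round spermatid number favours, as it does the higher round spermatid medians. Condensing nucleosomes of H2A.L.2-less cells were also dense there, at 426 per window against 157 over all windows. The median summit value was 1.49 times that of the list in round spermatids and 1.36 times in spermatocytes, and 66.7% of spermatocyte summits were kept, against 44.7% over all windows. After displacement these shares were 35.6% and 17.7%, so the kept share relative to this background was not higher in the dense windows.

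On chromosome 5 the longest stretch of such windows, with at most 300 kb from one start to the next, ran from 94000001 to 96200000, where 19 of 22 windows passed the limit. It held medians of 398 summits per window in round spermatids and 325.5 in spermatocytes, 319 and 303 in the WT lists and 454.5 in H2A.L.2-less condensing nucleosomes. The longest array of round spermatids, with 22 summits, is in it.

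Chromosomes differed modestly. Relative to spermatocytes, the number of round spermatid summits was lowest on chromosome 11, at 0.910 times, and highest on chromosome 3, at 1.05 times. Of the windows of chromosome 3, 7.47% had a log2 ratio above 0.5 and 0.255% below -0.5, while chromosome 5 had 1.955% above and 3.64% below, and chromosome 16 had no window below -0.5.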
